A study of Mus musculus with 13 samples.

Results

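The 8 genes described here are the 6 Iroquois homeobox genes of the mouse (Irx1, Irx2, Irx3, Irx4, Irx5 and Irx6) and the 2 COUP-TF nuclear receptor genes with a role in heart chambers (Nr2f1 and Nr2f2). They were taken by symbol, and all 8 are among the 27998 genes listed in every matrix. Each was followed in 80741 barcodes with at least 2000 UMIs (unique molecular identifiers, 1 for each captured transcript), here called cells. A cell was called atrial when it had at least 1500 CPM of Tnnt2 (the UMIs of a gene scaled to the same total in every cell), at least 1000 CPM of Myl7 and less than 500 CPM of Myl2, and ventricular when it had at least 1500 CPM of Tnnt2 and at least 1000 CPM of Myl2. Tnnt2 codes for cardiac troponin T, Myl7 for the atrial and Myl2 for the ventricular regulatory myosin light chain. These gates gave 2479 atrial and 23962 ventricular cells and left 54300 cells elsewhere, and they used no value of the 8 genes.

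Wild-type C57Bl/6J mice were sampled at 6 stages by droplet-based single-cell RNA sequencing. The dissociated tissue was the embryo without its head and limbs at the 2 earliest stages (E8.5 and E10.5) and the heart at the others (E12.5, E14.5, E16.5, P3). No allele, transgene or treatment separates the groups, which differ in stage and in the tissue taken. The E10.5, E12.5, E14.5 and E16.5 groups have 2 libraries each, whereas E8.5 is represented by 1 library (its replicate 1 was not analysed here). P3 has 2 sample records, labelled replicates 1 and 2, in 1 matrix that pools 2 wells. No label or statement in the paper ties a well to a record, so P3 was counted as 1 sample. Both stages were left out of the tests, which for P3 was a choice made here. From a visual check, the paper reports significant batch differences at P3 alone. Neither the labels nor the methods say whether the libraries of a stage come from different animals, and p-values therefore measure the spread between libraries. Where a fit takes stage as an added term, that spread also holds changes of a difference between cell classes with stage.

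Iroquois proteins are homeodomain transcription factors encoded by a pair of gene clusters, and in the developing heart they are known for ventricular patterning and for the transmural and conduction-system expression of ion channel genes. COUP-TFI (Nr2f1) and COUP-TFII (Nr2f2) are orphan nuclear receptors. COUP-TFII is known to maintain atrial identity in cardiomyocytes and venous identity in endothelium, and Irx4 is known to repress atrial genes in the ventricle.

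Irx1, Irx2 and Irx4 lie on chromosome 13 and Irx3, Irx5 and Irx6 on chromosome 8 of the build that the files name (mm10). In RefSeq coordinates of GRCm38.p6, Irx1 (ENSMUSG00000060969) spans 71958232 to 71963723, Irx2 (ENSMUSG00000001504) 72624430 to 72634196 and Irx4 (ENSMUSG00000021604) 73259589 to 73269622 of chromosome 13. Irx3 (ENSMUSG00000031734) spans 91798511 to 91801654, Irx5 (ENSMUSG00000031737) 92357796 to 92361456 and Irx6 (ENSMUSG00000031738) 92674289 to 92680956 of chromosome 8. Nr2f1 (ENSMUSG00000069171) lies at 78188971 to 78198873 of chromosome 13, 4919 kb beyond Irx4, and Nr2f2 (ENSMUSG00000030551) at 70351946 to 70366746 of chromosome 7. Neighbours within the chromosome 13 cluster are 661 and 625 kb apart and those within the chromosome 8 cluster 556 and 313 kb apart.

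Promoter entries were found in the RefSeq table for 5 of the 8 genes (Irx2, Irx3, Irx4, Nr2f1 and Nr2f2). The stretch directly upstream of the start site is shown, up to the first exonic base of a protein-coding transcript, for the 3 where that leaves any: Irx2 and Irx4, which were higher in ventricular than in atrial cells, and Nr2f2, which was higher in atrial cells. Each runs 5′ to 3′ on the strand of its gene (plus for Irx2 and Irx4, minus for Nr2f2), with CpG dinucleotides in capitals. The Irx2 and Irx4 stretches lie inside the annotated gene spans, which begin further upstream, and the last 18 bases of the Irx4 window, from an exon on, were left out.
Irx2, chr13:72628570-72628819: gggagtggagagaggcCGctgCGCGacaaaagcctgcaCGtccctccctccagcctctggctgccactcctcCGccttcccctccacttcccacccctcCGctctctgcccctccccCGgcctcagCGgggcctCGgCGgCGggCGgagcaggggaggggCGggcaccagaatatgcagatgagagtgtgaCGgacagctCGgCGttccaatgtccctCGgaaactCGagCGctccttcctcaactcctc
Irx4, chr13:73260247-73260478: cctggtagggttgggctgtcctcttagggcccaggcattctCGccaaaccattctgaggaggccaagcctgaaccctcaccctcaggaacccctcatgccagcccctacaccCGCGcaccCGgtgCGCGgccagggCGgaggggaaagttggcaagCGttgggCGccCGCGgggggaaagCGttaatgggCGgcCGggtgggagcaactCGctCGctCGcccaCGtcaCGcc
Nr2f2, chr7:70366747-70366996: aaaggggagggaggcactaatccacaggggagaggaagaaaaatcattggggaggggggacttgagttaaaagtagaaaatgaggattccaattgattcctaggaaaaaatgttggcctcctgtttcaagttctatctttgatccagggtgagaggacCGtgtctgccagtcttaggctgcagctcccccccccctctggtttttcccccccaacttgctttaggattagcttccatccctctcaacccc

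The Irx2 and Irx4 stretches are rich in G and C (68.4 and 68.1%) and hold 19 CpG each, whereas the Nr2f2 stretch has 50.0% and 1 CpG. Over the 32851 promoter windows of the table the median was 52.4% G and C (quartiles 45.2 and 61.2%) and 6 CpG (quartiles 2 and 16), so the Irx2 and Irx4 stretches lie above the upper quartile on both measures and the Nr2f2 stretch lies below the lower one for CpG. A set of 5 short motifs was searched on both strands: AGGTCA (nuclear receptor half-site, held by 14.02% of all windows), AGGTGT (T-box, 11.8%), GATAA (GATA, 22.6%), ACANNTGT (Iroquois, 6.31%) and TATAAA (12.4%). None of the 5 is written in any of the 3 stretches, and the windows are short against the distances between the genes.

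Libraries held 10526 to 14675 such cells at E10.5 and P3 and 4928 to 6977 at the other stages, and the median depth of atrial and ventricular cells was 10288 to 21509 UMIs. Between 0.548 and 2.42% of barcodes were shared by a pair of libraries. In embryos the gates found few cells: 63 atrial and 65 ventricular at E8.5, and 56 and 39 atrial and 42 and 48 ventricular at E10.5. From E12.5 to E16.5 a library gave 195 to 303 atrial and 2286 to 3557 ventricular cells, and P3 gave 769 and 5960. The label was checked with Nppa (atrial natriuretic peptide), beside Myl7, which the atrial gate itself uses. At E8.5 the atrial and ventricular gates differed little in Myl7 (20645 and 19846 CPM), and Nppa was lower in the atrial gate (199 against 853 CPM), so that at this stage the atrial gate holds Myl2-low cardiomyocytes rather than cells marked as atrial. At E10.5 the ranges of the gates overlapped in Myl7 (17166 to 17727 against 10417 to 17662 CPM) and Nppa (1080 to 1096 against 983 to 1609 CPM), so that they do not bear out the atrial name there either. At E12.5 the gates still overlapped in Nppa (2229 to 2760 against 2220 to 2658 CPM), while the summed level of 9 atrial myocardium genes that the gates do not use, Nppa among them, did not (14207 to 15134 against 9397 to 10239 CPM). By E16.5 they stood far apart in Nppa (11335 to 11851 against 683 to 696 CPM). The words atrial and ventricular below stand for these gates.

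Irx4 marked ventricular cells and was at or under 4.45 CPM in every other class of the heart named by markers from E12.5 to E16.5. In ventricular cells its level was 55.9 CPM at E8.5, 43.9 and 48.6 (E10.5), 50.9 and 56.0 (E12.5), 50.9 and 50.4 (E14.5), 42.1 and 44.3 (E16.5) and 36.7 at P3. In the 2 wells of P3 Irx4 was 32.9 and 47.2 CPM, the second above both E16.5 libraries. In atrial cells it was 3.48 CPM at E8.5, 1.27 and 0 (E10.5), 0.207 to 1.44 from E12.5 to E16.5 and 1.67 at P3. The ranges of the 2 chambers did not overlap at any stage. Atrial against ventricular cells, the log2 fold change of Irx4 was -5.86 ± 0.67 (SE, 2 libraries per group) at E10.5 with an adjusted p of 5.1e-06, -6.08 ± 0.22 at E12.5 (7.2e-17), -6.43 ± 0.29 at E14.5 (3.4e-15) and -6.59 ± 0.28 at E16.5 (6.2e-16; edgeR's quasi-likelihood test, adjusted over 11900 genes). A sum over cells does not separate the share of cells that express a gene from the amount per cell, and CPM of these 3′ counts are not divided by transcript length, so levels are compared between samples and classes and not between genes.

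Irx1 and Irx2, the neighbours of Irx4, were likewise ventricular. Irx1 stood at 25.03 CPM in ventricular cells at E8.5, 23.5 and 16.7 (E10.5), 12.8 and 15.7 (E12.5), 10.9 and 10.8 (E14.5), 7.04 and 8.92 (E16.5) and 6.91 at P3. Irx2 stood at 28.0, then 26.7 and 15.2, 17.8 and 16.9, 11.9 and 12.7, 8.80 and 11.2, and 9.88 CPM at the same stages. Both were highest in the embryos and lower at each later stage up to E16.5 when the mean of the libraries is taken. For Irx2, however, E10.5 replicate 2 lay below both E12.5 libraries. The E10.5 ventricular sums held 15 and 11 UMIs of Irx1 and 17 and 10 of Irx2. Atrial cells held 0 to 0.361 CPM of Irx1 and 0 to 0.238 CPM of Irx2 from E12.5 to E16.5. At E16.5 no Irx2 UMI was found in the atrial cells of either library, and the ventricular level was at least 27.2-fold higher when the atrial sum is set to 3 counts over both libraries. The fitted log2 differences, atrial minus ventricular, were -6.31 ± 0.46 for Irx1 and -7.53 ± 0.49 for Irx2 at E12.5, with adjusted p of 5.6e-11 and 1.1e-11. Their size depends on few counts, since the atrial sums held 0 and 2 UMIs of Irx1 and 1 and 0 of Irx2.

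Irx3 and Irx5, which are known for the ventricular conduction system and the transmural gradient of repolarisation, were also ventricular within cardiomyocytes. Irx3 in ventricular cells was 12.51 CPM at E8.5, 18.8 and 9.12 (E10.5), 22.4 and 25.2 (E12.5), 16.1 and 15.8 (E14.5), 13.1 and 16.7 (E16.5) and 31.6 at P3. Irx5 was 5.89 CPM at E8.5, 7.84 and 6.08 (E10.5), 12.03 and 12.4 (E12.5), 9.02 and 8.35 (E14.5), 9.80 and 10.4 (E16.5) and 17.5 at P3. The P3 level of both was above every earlier library, in each of the 2 wells for Irx3 (29.6 and 37.1 CPM) and for Irx5 (17.2 and 18.1 CPM), which carries no test. Atrial cells held 0.207 to 2.16 CPM of Irx3 and 0 to 2.54 CPM of Irx5 from E12.5 to E16.5. At E12.5 the log2 differences, atrial minus ventricular, were -4.39 ± 0.29 for Irx3 and -4.53 ± 0.36 for Irx5, with adjusted p of 1.2e-11 and 3.6e-10. At E10.5 they were -1.55 ± 0.78 for Irx3 and -1.14 ± 0.91 for Irx5, with adjusted p of 0.48 and 0.74. Irx6 was close to 0 in both chambers at all stages, with 0 to 1.09 CPM in ventricular and 0 to 1.27 CPM in atrial cells, and did not pass the filter on low counts for these comparisons.

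Nr2f1 was higher in atrial than in ventricular cells at every stage. Its atrial level was 82.0 CPM at E8.5, 208 and 159 (E10.5), 255 and 273 (E12.5), 172 and 172 (E14.5), 106 and 110 (E16.5) and 46.1 at P3. In the 2 wells of P3 the atrial level of Nr2f1 was 51.0 and 35.8 CPM. In ventricular cells it was 4.42 CPM at E8.5, 17.3 and 27.3 (E10.5), 3.79 and 4.30 (E12.5), 2.60 and 1.60 (E14.5), 1.40 and 1.58 (E16.5) and 1.04 at P3. The chambers did not overlap at any stage. The log2 difference, atrial minus ventricular, was 3.07 ± 0.26 at E10.5 (adjusted p 3.2e-08), 5.88 ± 0.12 at E12.5 (8.5e-22), 6.23 ± 0.14 at E14.5 (3.1e-21) and 6.07 ± 0.14 at E16.5 (6.3e-21).

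Nr2f2 was higher in atrial than in ventricular cells as well. Atrial cells held 104 CPM at E8.5, 141 and 258 (E10.5), 119 and 114 (E12.5), 113 and 103 (E14.5), 72.0 in each library at E16.5 and 71.3 at P3 (65.9 and 82.7 in its 2 wells). Ventricular cells held 6.63 CPM at E8.5, 10.98 and 24.3 (E10.5), 1.94 to 3.48 from E12.5 to E16.5 and 3.51 at P3. The log2 difference, atrial minus ventricular, was 3.40 ± 0.35 at E10.5 (adjusted p 1.1e-06), 5.02 ± 0.15 at E12.5 (1.8e-18), 5.35 ± 0.18 at E14.5 (7.5e-18) and 4.82 ± 0.18 at E16.5 (3.9e-17). With no test, the ventricular levels of Nr2f1 and Nr2f2 (4.42 and 6.63 CPM, 6 and 9 UMIs) at E8.5 lay below those of erythroid cells (10.4 and 9.66 CPM). Erythroid cells should lack both genes. The counting interval of the ventricular Nr2f2 level (3.03 to 12.6 CPM) included the erythroid level. The atrial levels of both genes lay above those of erythroid cells. All cells elsewhere in the E8.5 embryo held 79.0 CPM of Nr2f1, close to the atrial level, and 63.6 CPM of Nr2f2. Whether the ventricular levels are background was not tested. The chamber difference of these genes at this stage lies between Myl2-low and Myl2-high cells whose Myl7 levels were nearly equal.

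Counted over the 7 genes tested, 5 passed an adjusted p of 0.05 at E10.5 (Irx3 and Irx5 did not), where 1.37% of all genes did. All 7 passed at E12.5, E14.5 and E16.5, where 33.7, 28.5 and 31.1% of all genes did. Each of the 5 Iroquois genes was lower and each of the 2 COUP-TF genes higher in atrial cells at those 3 stages. The E10.5 calls of Irx1 and Irx2 rest on 42 and 48 ventricular cells and were lost without either E10.5 library, which leaves 1 library per arm whose spread is assumed to be that of the other stages, with adjusted p of 0.20 and 0.26 for Irx1 and 0.21 and 0.16 for Irx2. After cells were thinned to 2000 UMIs, 2 genes (Nr2f1 and Nr2f2) were called at E10.5, and Irx4 had an adjusted p of 0.26. Markers of other classes were found in both gates. The summed level of 8 endothelial markers was 47.3 to 88.8 CPM in atrial and 27.6 to 43.5 CPM in ventricular cells from E12.5 to E16.5, against 1820 to 2705 CPM in endothelial cells. The summed level of 8 mural markers, some of which young cardiomyocytes share, was 305 to 1209 CPM in atrial and 1119 to 1517 CPM in ventricular cells. Their part in the chamber differences was not tested.

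The stages E12.5 and E16.5 were compared within each chamber. The median mitochondrial share of ventricular cells was 5.097 and 5.43% at E12.5 and 10.46 and 10.96% at E16.5, and that of atrial cells 6.64 and 6.47% and 7.39 and 7.97%. In ventricular cells at E16.5 against E12.5, 5 of 7 genes fell, where 62.5% of all genes were called (30.6% lower): Irx1 fell by 0.72 on the log2 scale (SE 0.11, adjusted p 4.2e-06), Irx2 by 0.67 (5.2e-06), Irx3 by 0.55 (5.0e-05), Irx4 by 0.17 (0.048) and Nr2f1 by 1.32 (1.7e-07). The values of Irx5 (-0.14) and Nr2f2 (-0.32) did not pass, with adjusted p of 0.26 and 0.15. The change of Irx4 was the smallest of those called and was not called with the replicate number as a block (-0.15, adjusted p 0.15), nor without 1 of several libraries: E10.5 replicate 1 (0.052), E12.5 replicate 2 (0.11), E14.5 replicate 1 (0.10), E16.5 replicate 1 (0.21) or E16.5 replicate 2 (0.13). Under a ceiling on the mitochondrial share Irx1, Irx2, Irx3 and Nr2f1 were called as lower (-0.55, -0.40, -0.42 and -1.13), and Irx4 was not (-0.15, adjusted p 0.12). Nr2f2 was called with that block (-0.41, 0.047), without E16.5 replicate 2 (-0.57, 0.042) and, at -1.09 with an adjusted p of 3.1e-05, when cardiomyocytes that carry at least 4 of the 8 markers of another class were left out. Free RNA held 13.0 and 16.7 CPM of Nr2f1 at E12.5 and 8.12 and 7.73 CPM at E16.5, above the ventricular level at both stages. The part of RNA from other cells in the fall of Nr2f1 was not tested.

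In atrial cells 2 of 7 genes changed between E12.5 and E16.5, where 24.5% of all genes were called (11.3% lower). Nr2f1 fell by 1.12 on the log2 scale (SE 0.10, adjusted p 6.8e-09) and Nr2f2 by 0.53 (SE 0.14, adjusted p 0.0071), whereas the 5 Iroquois genes, at 0 to 2.54 CPM, did not pass, with adjusted p of 0.56 to 0.90. Nr2f2 was not called with DESeq2 (adjusted p 0.070), with a stricter chamber gate (0.12) or after thinning (0.14). The summed level of the 8 mural markers in atrial cells was lower at the later stage as well, going from 1144 to 1209 CPM at E12.5 to 305 to 339 CPM at E16.5, and its part in the change of the COUP-TF genes was not tested. The ratio of Nr2f1 to Nr2f2 UMIs in atrial cells was 0.792 at E8.5, 1.48 and 0.618 (E10.5), 2.14 and 2.39 (E12.5), 1.53 and 1.68 (E14.5), 1.48 and 1.53 (E16.5) and 0.646 at P3. It was highest at E12.5 and lower in every later library. The difference between the chambers was not called as changed from E12.5 to E16.5 for any of the 7 (0 called by edgeR, where 10.4% of all genes were at an adjusted p of 0.05, and 0 by DESeq2). None of the 7 had an unadjusted p under 0.05 either. For Nr2f1 that change was 0.19 with an adjusted p of 0.61, and it was 0.64 with an adjusted p of 0.032 when cardiomyocytes with the markers of another class were left out.

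Irx4 and the COUP-TF genes ran in opposite directions along Myl2. Cells with at least 1500 CPM of Tnnt2 were binned by Myl2 in each library. From E12.5 on, Irx4 was 0 to 2.4 CPM below 200 CPM of Myl2 and 36.9 to 57.1 CPM above 5000 CPM. Nr2f1 fell over the same bins from 46.9 to 248 CPM to 0.872 to 3.02 CPM, and Nr2f2 from 57.7 to 106 CPM to 1.8 to 3.1 CPM. In the bin of 1000 to 2000 CPM Myl2, which the ventricular gate includes, Irx4 was 2.3 to 10.8 CPM in 6 of the 7 libraries and 48.0 CPM in E14.5 replicate 1, over 28 to 102 cells. The bin of 500 to 1000 CPM, which neither gate includes, still held 46.9 to 161 CPM of Nr2f1 in these 7 libraries. No test was made between bins.

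**Figure D1:**
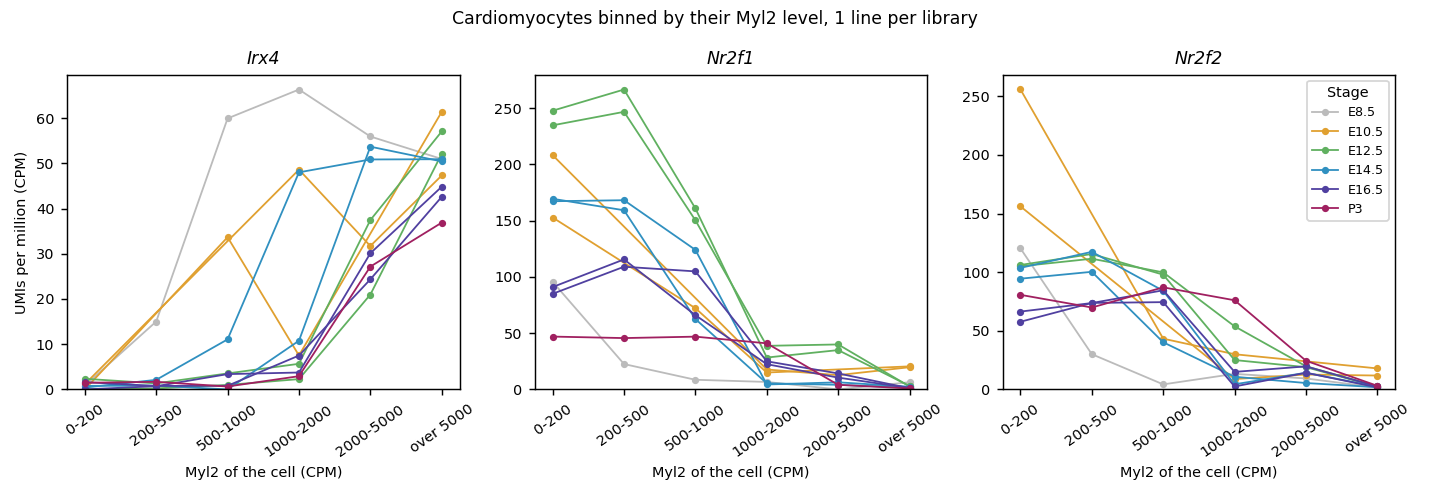
Level of Irx4, Nr2f1 and Nr2f2 (CPM) in cells with at least 1500 CPM of Tnnt2, binned by their Myl2 level (CPM), with 1 line per library. Irx4 rises and both COUP-TF genes fall as Myl2 goes up, with most of the change between the bins that start at 500 and 5000 CPM.

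Other genes of chamber identity were listed to set beside the 8, and their counts are read against the 1.37, 33.7 and 31.1% of all genes called at E10.5, E12.5 and E16.5. The lists overlap, so some genes are counted more than once. Hey2, Hand1, Hand2 and Prdm16 are in the ventricular and the transcription factor list, and Gja5 and Bmp10 in the atrial and the target list. Of 9 atrial myocardium genes, 7 were higher and 1 lower in atrial cells at E12.5 (median log2 difference 1.71, against 0.03 over all genes), and all 9 were higher at E16.5 (median 3.44, against -0.01). Of 8 ventricular myocardium genes, 7 were lower at E12.5 (median -2.74) and 7 at E16.5 (median -4.47). At E10.5 only 1 of the 9 atrial genes was higher, while 5 of the 8 ventricular genes were lower in the atrial gate. Hey2, a Notch effector of the compact ventricle, had log2 differences of -3.69, -4.38, -5.91 and -6.46 from E10.5 to E16.5. Bmp10, a growth factor of trabecular and later atrial myocardium, went from -1.05 at E12.5 (adjusted p 4.2e-05) to 2.75 at E16.5 (1.3e-14). Of 15 other cardiac transcription factors, 9 were higher and 3 lower at E12.5 and 7 and 4 at E16.5, and Tbx5, the T-box factor of atria and conduction system, rose in contrast from 1.71 to 2.98. Of 7 genes reported as Iroquois targets, 6 were tested, of which 2 were higher and 2 lower in atrial cells at E12.5. The counts were the same at E16.5 but the genes were not, since Bmp10, which is also in this list, went from lower to higher. Gja1 (connexin 43) was lower in atrial cells at both stages (-2.19 and -1.13) and Gja5 (connexin 40) higher (0.82 and 2.52).

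Within the ventricle, cells differed in Irx1, Irx2, Irx3 and Irx5 along Nppa, which at these stages is known as a gene of the trabecular layer. The ventricular cells of each library from E12.5 to E16.5 were sorted by Nppa CPM, and the third with the highest level (Nppa-high) was compared with the third with the lowest (Nppa-low), 762 to 1185 cells each. The median depth was 9796 to 19987 UMIs in Nppa-low and 12598 to 20763 UMIs in Nppa-high cells and lower in the Nppa-low cells of all 6 libraries. Irx5 was 5.36 to 8.29 CPM in Nppa-low and 14.6 to 20.2 CPM in Nppa-high cells, Irx2 was 4.59 to 10.98 and 15.5 to 27.6 CPM, Irx1 4.33 to 11.3 and 11.9 to 23.7 CPM, and Irx3 9.58 to 19.0 and 21.6 to 38.3 CPM. Each of these 4 genes was higher in the Nppa-high cells in 6 of 6 libraries. The share of all genes with such an order was not counted. Irx4 was 42.3 to 55.3 CPM in Nppa-low and 41.2 to 60.8 CPM in Nppa-high cells. Irx6 was 0.102 to 1.54 CPM in Nppa-low and 0 to 0.555 CPM in Nppa-high cells, on 0 to 16 UMIs per sum. It was higher in the Nppa-high cells in 1 of 6 libraries.

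The log2 differences, Nppa-high minus Nppa-low, were 1.58 ± 0.09 for Irx5 (adjusted p 3.4e-09), 1.55 ± 0.10 for Irx2 (2.0e-08), 1.22 ± 0.10 for Irx1 (7.0e-07) and 1.18 ± 0.07 for Irx3 (1.9e-08), whereas that of Irx4 was 0.08 ± 0.04 (0.28). With every cell of the same groups thinned to 2000 UMIs they were 1.90, 1.79, 1.23 and 1.05 for the first 4, all called, and -0.03 for Irx4. Nr2f1 was also higher, by 0.68 ± 0.16 (adjusted p 0.0095), at levels of 1.90 to 5.27 against 1.02 to 4.17 CPM that overlap, and it was not called without E12.5 replicate 1 (0.61, 0.060). The value of Nr2f2 was 0.23 (0.50). In all, 5 of 7 genes were called, where 13.1% of all genes were. The Nppa-low cells at E14.5 and E16.5 held no Nppa UMI, so cells without Nppa were taken in the order of the file. Of the 6 reported target genes tested, 4 were higher in Nppa-high cells and none lower, among them Bmp10 by 3.22, Gja5 by 2.17 and Gja1 by 0.64. Hey2 was lower (-0.49, adjusted p 0.00054).

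At P3, with no test, the order was kept for Irx5 (13.2 CPM in Nppa-low and 23.8 CPM in Nppa-high cells), Irx1 (6.14 and 8.45), Irx2 (9.15 and 11.96) and Irx3 (29.996 and 34.8), while Irx4 was lower in Nppa-high cells (43.1 and 30.8 CPM). These P3 groups were taken over both wells together. The ventricular cells of the 2 wells differed in Irx4 (32.9 and 47.2 CPM) and in median depth (19196 and 10164.5 UMIs). The part of well and depth in the P3 order was not tested.

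Ventricular cells with a Gja5 UMI, a split chosen after values had been seen and given without a test, were also higher in Irx1, Irx2, Irx3 and Irx5. There were 66 to 136 of them in each of the 7 libraries from E12.5 on. Irx5 in cells with Gja5 was 12.9 and 25.4 CPM at E12.5, 27.5 and 23.2 (E14.5), 37.7 and 42.5 (E16.5) and 76.3 at P3, while in the other ventricular cells it stayed between 7.8 and 16.9 CPM. The level with Gja5 against without was 3.33-fold for Irx5 (median of 7 libraries, range 1.08 to 4.52), 3.198-fold for Irx2 (1.55 to 8.66), 2.34-fold for Irx3 (1.58 to 3.97) and 2.21-fold for Irx1 (1.33 to 6.56). For Irx4 it was 1.05-fold (0.642 to 1.28), and at P3 Irx4 was 23.6 CPM with and 36.8 CPM without Gja5. Nr2f1 was 0 to 11.8 CPM with and 0.935 to 4.19 CPM without Gja5, and higher with it in 6 of 7 libraries. Nr2f2 was 1.53 to 29.0 CPM with and 1.89 to 3.38 CPM without, and higher with it in 5 of 7. These levels rest on 0 to 27 UMIs per library, and the highest were those of P3. Gja5 marks the trabecular and Purkinje myocardium of the ventricle. Since Gja5 was looked for at this equal depth, the other ventricular cells can include cells with a Gja5 UMI at full depth.

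Outside cardiomyocytes, cells were named by markers (Tnnt2 below 1500 CPM and at least 4 of 8 markers of 1 class, more than of any other). From E12.5 to E16.5 Irx5 was higher in endothelial than in ventricular cells. Its endothelial level was 9.56 CPM at E8.5, 18.3 and 16.8 (E10.5), 125 and 129 (E12.5), 56.8 and 46.7 (E14.5), 40.3 and 45.8 (E16.5) and 16.7 at P3, where the ventricular level was 17.5 CPM. The level at E12.5 was followed by lower ones in every later library. Embryos were taken up to E10.5 and hearts from E12.5 on, so stage and tissue cannot be told apart between E10.5 and E12.5. Irx6 was highest at E12.5 as well, with 0.957 and 2.05 CPM at E10.5, 17.1 and 20.02 (E12.5), 11.1 and 7.12 (E14.5), 4.26 and 3.29 (E16.5) and 0.0625 at P3. Irx3 in endothelial cells was 11.2 to 18.4 CPM over all 10 libraries.

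Endothelial against ventricular cells from E12.5 to E16.5, all 8 genes passed the test, as did 72.8% of all genes. Irx5 was higher by 2.60 ± 0.19 on the log2 scale (adjusted p 1.1e-14), Irx6 by 4.37 ± 0.30 (2.4e-14), Nr2f1 by 1.83 ± 0.16 (2.0e-12) and Nr2f2 by 5.02 ± 0.20 (1.3e-23). The 3 genes of the chromosome 13 cluster were lower: the log2 differences were -5.56 for Irx1, -5.01 for Irx2 and -5.52 for Irx4. Irx3 was lower over these stages together, at -0.49 ± 0.17 (adjusted p 0.0080), but its order turned with stage: endothelial cells lay below ventricular cells at E12.5 (11.3 and 11.5 against 22.4 and 25.2 CPM) and above them in each library of E16.5 (16.2 against 13.1 and 18.4 against 16.7 CPM). At P3, which entered no test, endothelial cells lay below ventricular cells again (14.4 against 31.6 CPM). With DESeq2 the adjusted p of Irx3 was 0.051. Irx3 and Irx5, of the chromosome 8 cluster, were at 8.35 CPM or above in both cell types of each library from E12.5 to E16.5. Irx6, of the same cluster, was at most 1.09 CPM in ventricular cells. Irx1, Irx2 and Irx4 were at most 1.57 CPM in endothelial cells.

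Endothelial cells were divided by Npr3, known as a gene of endocardium, and Fabp4, known as a gene of coronary capillaries. This split was also chosen after values had been seen and carries no test. In cells with an Npr3 and no Fabp4 UMI, Irx5 was 148 and 153 CPM at E12.5, 105 and 100.2 (E14.5), 95.4 and 99.4 (E16.5) and 62.9 at P3. In cells with a Fabp4 and no Npr3 UMI it was 19.2 and 19.0, 3.54 and 6.69, 2.24 and 2.20, and 5.91 CPM. The Npr3 cells were therefore higher in all 7 libraries, by 7.68-fold to 45.2-fold. The highest ratios, 42.6-fold and 45.2-fold at E16.5, rest on 8 and 6 Irx5 UMIs in the Fabp4 cells. Irx6 in Npr3 cells went from 20.3 and 23.8 CPM at E12.5 to 7.84 and 6.59 CPM at E16.5 and 0 at P3, and it was 0 to 1.35 CPM in Fabp4 cells.

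Irx3 in Npr3 cells moved the other way with stage, from 13.1 and 13.7 CPM at E12.5 through 23.6 and 25.7 (E14.5) to 33.1 and 35.7 (E16.5), and was 28.3 CPM at P3. Nr2f2 in the same cells was 80.0 and 90.9 CPM at E12.5, 163 and 149 (E14.5), 146 and 160 (E16.5) and 189 at P3. In Fabp4 cells Nr2f2 was 26.0 to 73.1 CPM, and the Npr3 cells were 1.64-fold to 3.07-fold higher. In embryos, Irx5 in cells with Npr3 and no Fabp4 was 13.2 CPM at E8.5 and 33.1 and 32.9 CPM at E10.5. The share of cells with Npr3 and no Fabp4 among endothelial cells went from 74.0 and 74.8% (E12.5) through 51.5 and 44.5% (E14.5) and 41.5 and 40.2% (E16.5) to 11.8% (P3). This share also depends on the detection of Fabp4: cells with both genes numbered 18 and 30 at E12.5 and 183 of 594 at P3, where they held 32.5 CPM of Irx5. The E12.5 libraries held 24 and 27 Fabp4 cells.

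**Figure D2:**
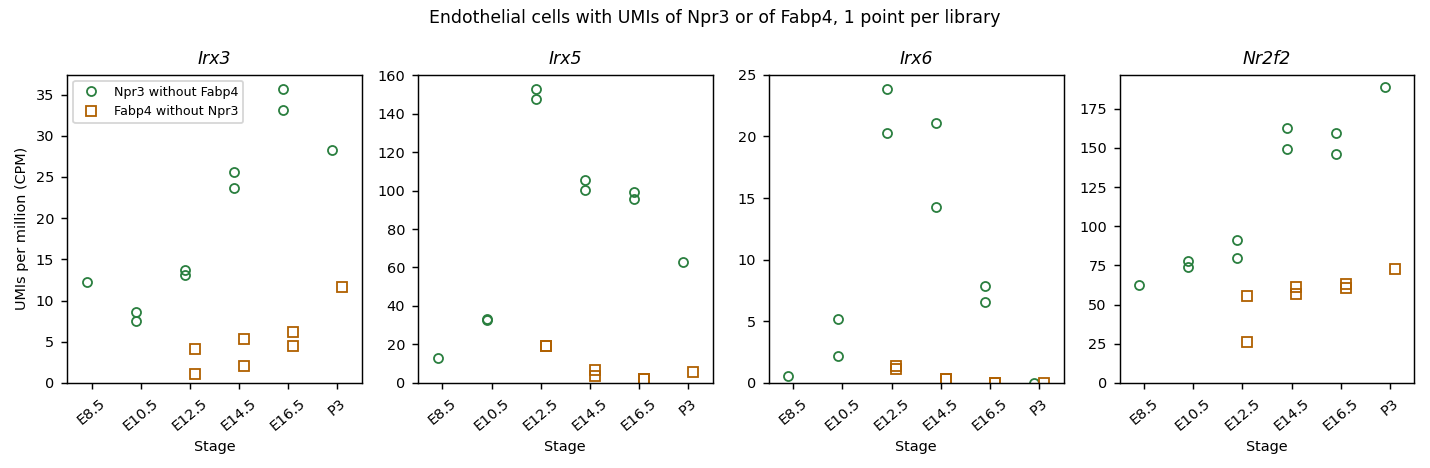
Level of Irx3, Irx5, Irx6 and Nr2f2 (CPM) in endothelial cells with Npr3 and no Fabp4 UMI and with Fabp4 and no Npr3 UMI, by stage, with 1 point per library. Irx5 lies higher in the Npr3 cells in all 7 libraries from E12.5 on, and Irx3 in the Npr3 cells rises up to E16.5.

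Mural cells, which are pericytes and smooth muscle, held the highest Nr2f2 level among the classes of the heart named by markers, though the Npr3 endothelial cells of E14.5 and E16.5 (146 to 163 CPM) lay within their range. Over the 4 libraries of E14.5 and E16.5 it was 131 to 197 CPM (median 163), and it was 252 CPM at P3. Atrial cells (72.0 to 119 CPM, median 108, over 6 libraries from E12.5 to E16.5) and endothelial cells (72.1 to 111 CPM, median 95.7) overlapped and came next, followed by epicardial (34.7 to 52.6 CPM), mesenchymal (13.1 to 32.0 CPM) and ventricular cells (1.94 to 3.48 CPM). For Nr2f1 the order, without the embryonic mesenchyme class that was found in hearts at E12.5 alone (33.8 and 32.6 CPM, 64 and 97 cells), was atrial (106 to 273 CPM, median 172), mural (68.9 to 90.1 CPM, median 77.9) and mesenchymal (12.04 to 26.7 CPM, median 15.4) with no overlap between these neighbours, and epicardial (0 to 19.8 CPM) and endothelial cells (8.53 to 11.2 CPM) overlapped. At P3 Nr2f1 was higher in mural (72.3 CPM) than in atrial cells (46.1 CPM). Mural sums were made from 17 to 105 cells per library, and the 5 and 9 mural cells of E12.5 were left out.

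Mesenchymal cells, the fibroblast and valve lineages, were lower than ventricular cells in Irx1 to Irx5, with log2 differences from -3.54 for Irx5 to -5.23 for Irx4, and in Irx6 (-1.37, adjusted p 0.015), and higher in Nr2f1 (2.65 ± 0.15) and Nr2f2 (2.81 ± 0.19). All 8 passed the test there, as did 72.6% of all genes. Irx6 (-1.37 ± 0.50, adjusted p 0.015) was not called without E14.5 replicate 1 (-1.16, 0.063) or replicate 2 (-1.16, 0.051). In E16.5 replicate 2 it was higher in mesenchymal (0.317 CPM, 2 UMIs) than in ventricular cells (0.130 CPM), and it was lower in each other library. Epicardial cells passed in 7 of 8, where 62.4% of all genes passed, with Irx6 at -1.49 (adjusted p 0.23). Epicardial Nr2f2 was higher by 3.8 ± 0.22 and Nr2f1 by 1.87 ± 0.22, and the log2 difference of Irx4 was -5.49 ± 0.27.

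**Figure D3:**
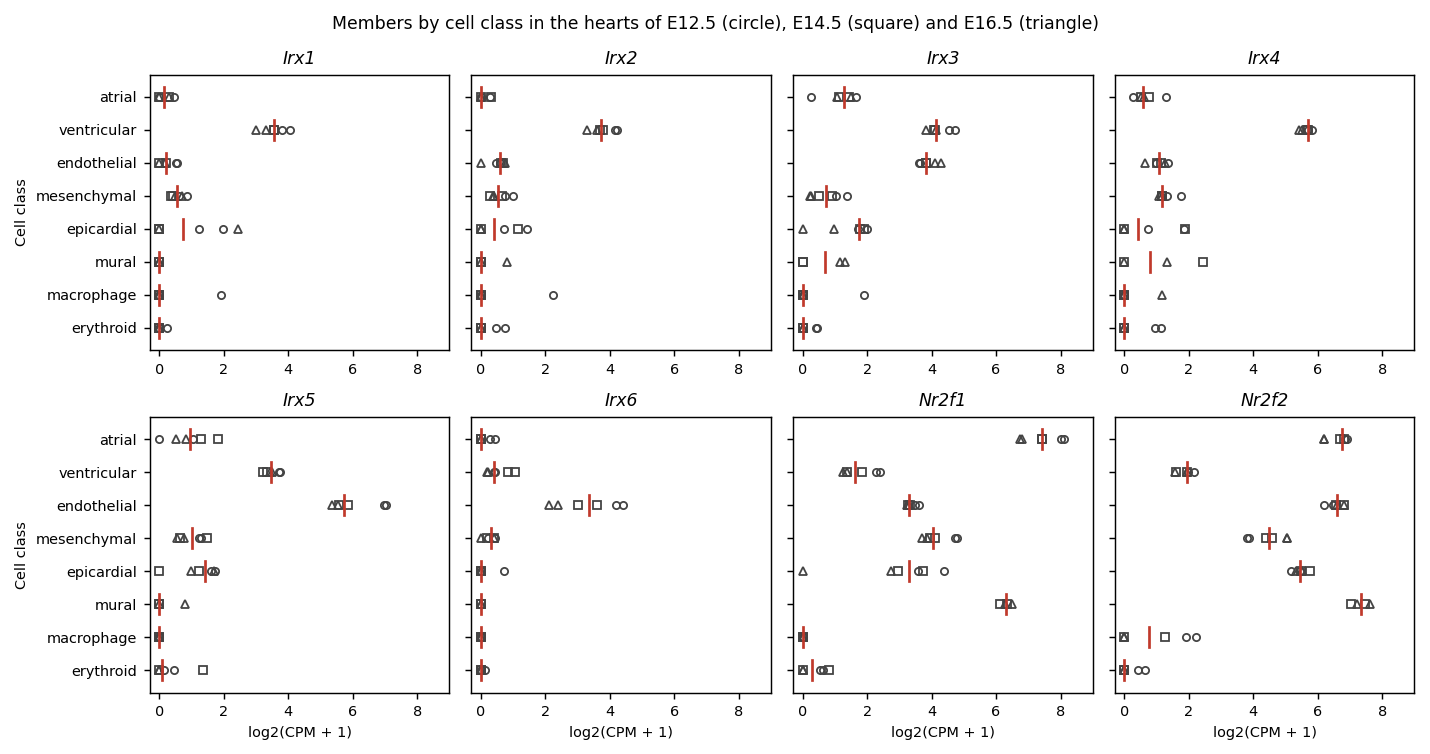
Level of each gene (CPM, log axis) in 8 cell classes of the heart from E12.5 to E16.5, with 1 point per library. Irx1, Irx2 and Irx4 stand out in ventricular cells, Irx5 and Irx6 in endothelial cells, Nr2f1 in atrial cells and Nr2f2 in mural, atrial and endothelial cells.

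In the E10.5 embryo the chamber order was set within a wider pattern. Neural progenitors held 26.3 and 24.9 CPM of Irx1, 18.9 and 18.7 of Irx2, 66.9 and 66.6 of Irx3 and 58.7 and 54.5 of Irx5, each above the level of embryonic mesenchyme (5.95 to 7.09, 3.25 to 3.37, 26.8 to 28.2 and 16.1 to 16.9 CPM). Irx3 and Irx5 in neural progenitors exceeded their levels in the ventricular cells of every library. Irx4 was 0.524 and 0.537 CPM in neural progenitors and 5.00 and 5.33 CPM in epithelial cells, against 43.9 and 48.6 CPM in ventricular cells of the same libraries. Irx6 was at most 2.05 CPM in the classes of at least 10 cells.

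Neural progenitors against embryonic mesenchyme, 6 of 7 genes passed, where 58.9% of all genes did. The log2 differences were 1.98 ± 0.10 for Irx1, 2.51 ± 0.10 for Irx2, 1.29 ± 0.06 for Irx3 and 1.79 ± 0.07 for Irx5, with adjusted p of at most 5.7e-17. Irx4 at 0.81 ± 0.34 (adjusted p 0.044) rested on under 1 CPM in both classes. Nr2f1 was high in both (219 to 224 CPM in progenitors and 228 to 231 CPM in mesenchyme) and its difference was -0.04 ± 0.05 (0.48). Nr2f2 was lower in progenitors, at -0.37 ± 0.06 (7.8e-06), and it was highest, outside the atrial gate, in epicardial cells of the embryo (174 and 180 CPM). Ventricular cells at E10.5 were low in both COUP-TF genes, with 17.3 and 27.3 CPM of Nr2f1 and 10.98 and 24.3 CPM of Nr2f2. Erythroid cells of the same libraries, which should lack both genes, held 24.1 and 30.1 CPM of Nr2f1 and 14.4 and 11.9 CPM of Nr2f2. The ventricular values of Nr2f1, and that of Nr2f2 in replicate 1, lay below these levels. Whether they are background was not tested. Nr2f2 in replicate 2 lay above the erythroid level.

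Free RNA, read from barcodes with 1 to 100 UMIs, held 19.3 to 28.4 CPM of Irx4 in the heart libraries from E12.5 to E16.5, and 157 to 170 CPM of Nr2f1 and 133 to 138 CPM of Nr2f2 at E10.5. To see what this gives in cells that should lack the genes, cells were thinned to 2000 UMIs and those with a UMI were counted. Irx4 was found in 7.87 to 10.3% of ventricular cells (40.02 to 51.7% unthinned, median depth 12292 to 20736 UMIs) and in 0 to 0.505% of erythroid cells (0 to 2.84% unthinned, median depth 19104 to 30890 UMIs) from E12.5 to E16.5. Nr2f2 was found in 11.2 to 23.1% of atrial, 12.8 to 19.1% of endothelial and 0.281 to 0.428% of ventricular cells, and in 0 to 1.52% of erythroid cells unthinned. Nr2f1 was found in 10.8 to 33.0% of atrial and 0.155 to 0.700% of ventricular cells. For Irx5 the shares were 9.52 to 20.7% in endothelial, 1.66 to 2.49% in ventricular and 0 to 1.85% in erythroid cells, so that the thinned ventricular and erythroid shares overlap, the highest erythroid share being 1 of 54 cells. At full depth Irx5 did not overlap, with 8.35 to 12.4 CPM in ventricular and 0 to 1.54 CPM in erythroid cells. Irx6 was seen in 1.13 to 4.42% of endothelial cells and in at most 0.327% of ventricular cells.

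The genes most like Irx4 and Nr2f2 were looked for over 30 sums (atrial, ventricular and all other cells of 10 libraries) by Pearson's correlation of log2(CPM + 1), given as a description since the sums share libraries. Irx4 was most like Hey2 and Myl2 (0.877 each), Ddc (0.866), Lbh (0.851) and Ammecr1 (0.847), among 4681 genes, and Myl2 defines the gates. Nr2f2 was most like Nr2f1 (0.914), Peg3 (0.893), Shox2 (0.846), Peli1 (0.824) and Dap (0.791), among 4680 genes. Among the 8, Irx1 and Irx2 were the most alike pair (0.979) and Irx4 and Nr2f2 the most opposed (-0.923). Of the other 7, Irx5, its neighbour, was the closest to Irx6 (0.594), whereas over all genes Irx6 was most like Car2 (0.846) and Fam210b (0.844).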

How the data were processed

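Gene by barcode UMI counts were deposited by the authors for each library, unnormalized and not corrected for free RNA. The submitters' processing notes name Cell Ranger 2.1.1, Seurat 3.1.1 and mm10, and the headers of the deposited count matrices name software 3.1.0 or 3.0.0. The labels give trypsin and version 2 chemistry where the paper gives collagenase and version 3. Barcodes with at least 2000 UMIs were kept in the 10 matrices (E16.5 replicate 1 combines 2 sample records and P3 pools 2), and all of their per-sample columns were mapped. Doublets were kept in the main analysis; an alternative left out cardiomyocytes with a UMI in at least 4 of the 8 markers of another class.

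Counts were summed per library and class (at least 10 cells) and tested with edgeR 4.0.16 in R 4.3.3 (quasi-likelihood, TMM, filterByExpr) and p-values were adjusted by Benjamini-Hochberg across the genes of the fit, with 0.05 as threshold. A standard error is the log2 fold change divided by the square root of F. Atrial and ventricular sums from E10.5 to E16.5 were fitted together (16 sums, 11900 genes), as were 22 sums of E10.5 (14104 genes). The 40 sums of 7 heart classes (13471 genes) and the 12 Nppa sums (12100 genes) were each fitted with stage as an added term. The spread in these fits also holds changes of a difference with stage. Sums of 1 library share a suspension, and the main fits held no term for this pairing. The deviations of same-numbered atrial and ventricular sums correlated at -0.06 (E10.5), 0.38, 0.15 and 0.31 (E16.5) over 4679 genes. The block alternative used the replicate number, which ties libraries of different stages and does not model the pairing within each library. Scripts were tested on simulated data. Alternatives were DESeq2, no filter, the replicate block, depth, gate, mitochondrial, doublet and thinning settings and leaving out each library. The genes, lists and marker sets were chosen with earlier results of these data known. Named genes were the 8, the listed genes and markers, and the 5 genes most like Irx4 and Nr2f2. Confidence intervals are exact 95% intervals of counting error only. Reads were not used here.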

Additional observations from a re-analysis of the deposited data

Results flagged for a closer look

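None of the 7 genes tested was picked out by the test of a chamber difference that changes with stage, by the interaction term of the fit (E16.5 against E12.5, atrial minus ventricular, edgeR's quasi-likelihood test adjusted over 11900 genes, 2 libraries per group), where 10.4% of all genes were. Of the genes listed beside them, in lists that overlap, 7 of 9 atrial myocardium genes moved toward atrial and 1 toward ventricular cells. In the ventricular myocardium list, 4 of 8 genes moved toward ventricular cells. Of 15 other cardiac transcription factors 3 moved toward atrial and 2 toward ventricular cells, as did 3 and 0 of 6 reported target genes. Of these, 9 are named in the text. The difference moved toward atrial cells for Nppa by 4.07 on the log2 scale (adjusted p 1.4e-12), for Bmp10 by 3.802 (3.2e-12), for Sln, a regulator of the calcium pump, by 2.32 (6.6e-06), for Gja5 by 1.70 (1.6e-09), for Tbx5 by 1.27 (6.4e-09) and for Gja1 by 1.06 (0.0020). It moved toward ventricular cells for Hey2 (-2.08, 0.025), for the myosin light chain Myl3 (-1.86, 3.7e-07) and for the myosin heavy chain Myh7 (-1.16, 0.0018). Bmp10 changed sign between the stages, and Gja1 was lower in atrial cells at both (-2.19 and -1.13), so that its difference became smaller.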

How the results depend on the processing

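From E12.5 to E16.5 the chamber difference of the members kept its direction and its call in 354 of 354 values, over 17 alternatives and the members each of them could test. At E10.5 the count of members called went from 5 to 3 with DESeq2 (no adjusted p for Irx1 and Irx2), to 3 under the mitochondrial ceiling and to 2 after thinning to 2000 UMIs per cell, and to 3 without either E10.5 library. The change of the chamber difference with stage went from 0 to 1 called without marker doublets (Nr2f1, 0.64, adjusted p 0.032). In atrial cells at E16.5 against E12.5 it went from 2 to 1 with DESeq2, with the stricter gate and after thinning, where Nr2f2 had adjusted p of 0.070, 0.12 and 0.14. After thinning, 5 of the 5 members tested were called in endothelial and in mesenchymal against ventricular cells, in place of 8, since the other 3 did not pass the filter. In the neural progenitor comparison Irx4 changed sign after thinning (-0.10, adjusted p 0.94). Leaving out each library gave 3 to 5 called at E10.5, 7 to 7 at E12.5, E14.5 and E16.5, 0 to 0 for the change of the chamber difference, 2 to 2 in atrial and 4 to 5 in ventricular cells by stage, 8 to 8 in endothelial, 7 to 8 in mesenchymal and 7 to 7 in epicardial cells and 4 to 5 between the Nppa groups. The replicate block changed the call of Irx4 and of Nr2f2 in ventricular cells by stage and no other call of a member. The chamber gate, doublet and leave-one-out alternatives gave no value for the neural progenitor comparison, which uses no chamber gate and whose classes have 2 libraries at 1 stage. Over all genes, the count called at E10.5 went from 163 to 257 with no filter, 77 under the mitochondrial ceiling and 28 after thinning. With the stricter gate it went from 4007 to 1154 at E12.5, from 3387 to 2050 at E14.5, from 3706 to 1450 at E16.5, from 1241 to 351 for the interaction and from 2921 to 687 in atrial cells by stage, and after thinning to 1048, 821, 1011, 286 and 621. Thinning also took the counts from 7437 to 4052 (ventricular cells by stage), 9812 to 5790 (endothelial), 9774 to 5629 (mesenchymal), 8408 to 3960 (epicardial), 8313 to 3739 (neural progenitors) and 1580 to 404 (Nppa groups, 778 under the mitochondrial ceiling). Without 1 library these counts ranged from 132 to 157 at E10.5, 2432 to 4337 at E12.5, 1387 to 3702 at E14.5, 2105 to 4029 at E16.5, 565 to 1499 for the interaction, 1845 to 3214 in atrial cells by stage and 874 to 1622 between the Nppa groups. Other causes were not tested. The levels of Irx6 in both chambers and the atrial levels of the other Iroquois genes rest on few UMIs.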
